A study of Mus musculus with 12 samples.

Results

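The transcripts of 10 genes that mark the trophoblast lineage were followed in mouse embryonic stem cells (ESCs) after loss and gain of YAP, the co-activator of TEAD transcription factors. The set held the transcription factors Cdx2, Gata3, Gata2, Eomes, Elf5, Tfap2c and Tfap2a and the simple keratins Krt8, Krt18 and Krt19. The 10 genes were chosen by name, with no measured value in the rule, but with earlier results of these data known. All 10 were matched by symbol among the 24480 genes of each library. Several of them lay near the detection limit in ESCs, so expected counts are given beside normalised levels.

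Total RNA was sequenced from E14Tg2a ESCs, a feeder-free line kept on gelatin in serum with leukaemia inhibitory factor, in 12 libraries of 4 groups, with 3 libraries a group from independent experiments. In the knockdown (KD) experiment YAP KD cells were transfected with Stealth siRNAs that target Yap1, and CTR KD cells with a scrambled siRNA. In the overexpression (OE) experiment the cells received a plasmid with the coding sequence of wild-type mouse YAP behind the ubiquitous CAG promoter (YAP OE) or a control plasmid (CTR OE), which encodes GFP per the labels and is called empty in the study's text. All transfections were transient and lipid-based, and the study's text puts the harvest of the KD cells a couple of days after transfection, while the labels give no time. The libraries held 42926256 to 57240703 expected counts, in which 17611 to 18163 genes had at least 1 count, and 3 counts in a library amounted to 0.0524 to 0.0699 CPM, counts scaled to the library size. No member had fractional expected counts in any library, so no read of theirs was shared out between genes. The 8 ESC markers Pou5f1, Nanog, Sox2, Zfp42, Klf4, Esrrb, Tfcp2l1 and Utf1 summed to 3754 to 4104 normalised CPM in all 12 libraries, and 0 of 8 passed the test in either experiment. At an unadjusted edgeR p under 0.05 were 4 in KD and 2 in OE, all lower in the YAP libraries. Their log2 fold changes were -0.16 to -0.10 in KD (Esrrb, Nanog, Zfp42 and Tfcp2l1) and -0.11 in OE (Klf4 and Utf1). The share of all genes at that unadjusted level was not counted, so these counts are descriptions without a background.

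Trophectoderm is the outer epithelium of the blastocyst, which forms the placenta. There, active YAP and TEAD4 are known to switch on Cdx2 and Gata3, whereas the inner cells, from which ESCs derive, keep these genes low. Eomes, Elf5 and the AP-2 factor Tfap2c act with Cdx2 to maintain trophoblast stem cells, Gata2 and Gata3 act in later trophoblast, and the type II keratin Krt8 pairs with the type I keratins Krt18 and Krt19 in the first filaments that the epithelium builds.

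The promoters of the 4 members that rose in YAP OE are shown, since motifs of the TEAD, AP-2 and GATA families can be looked for in them. Each sequence is the 250 bases before the RefSeq start site in GRCm38.p6, read 5′ to 3′ on the strand of the gene. The motifs were searched on both strands, GGAATG for TEAD, GCCNNNGGC for AP-2 and AGATAA for GATA factors, and matched bases are in capitals. The Cdx2 promoter lies at chr5:147307250-147307499 on the minus strand. The Gata3 promoter lies at chr2:9878601-9878850 on the minus strand, inside the annotated span of the gene. The Krt8 promoter lies at chr15:102004343-102004592 on the minus strand, and the Krt18 promoter at chr15:102027966-102028215 on the plus strand.
Cdx2: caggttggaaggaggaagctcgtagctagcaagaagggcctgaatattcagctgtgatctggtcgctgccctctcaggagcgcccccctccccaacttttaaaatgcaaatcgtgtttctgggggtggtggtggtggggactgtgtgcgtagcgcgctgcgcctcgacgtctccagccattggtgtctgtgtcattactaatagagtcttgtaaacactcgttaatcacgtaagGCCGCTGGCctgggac
Gata3: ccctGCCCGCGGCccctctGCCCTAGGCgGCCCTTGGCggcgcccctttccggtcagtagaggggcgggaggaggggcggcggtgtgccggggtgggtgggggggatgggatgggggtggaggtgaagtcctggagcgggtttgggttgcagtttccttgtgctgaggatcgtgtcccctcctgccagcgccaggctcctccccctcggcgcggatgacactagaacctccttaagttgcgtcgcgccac
Krt8: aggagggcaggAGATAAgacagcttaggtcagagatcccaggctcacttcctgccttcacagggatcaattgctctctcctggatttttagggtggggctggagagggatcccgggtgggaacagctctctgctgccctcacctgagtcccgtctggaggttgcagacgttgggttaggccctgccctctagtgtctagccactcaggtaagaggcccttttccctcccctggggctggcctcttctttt
Krt18: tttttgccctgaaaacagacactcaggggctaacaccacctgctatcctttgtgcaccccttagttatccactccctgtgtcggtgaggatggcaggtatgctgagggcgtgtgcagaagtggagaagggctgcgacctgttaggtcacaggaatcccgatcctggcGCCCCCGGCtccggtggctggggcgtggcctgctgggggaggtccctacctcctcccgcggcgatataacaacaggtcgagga
An AP-2 match started at position -16 from the Cdx2 start, at -246, -231 and -221 from the Gata3 start and at -83 from the Krt18 start, and the GATA match of Krt8 started at -239. Of all 32851 promoters of this length, 13.7% held the AP-2 letters, 9.99% the GATA letters and 12.6% the TEAD letters. The TEAD letters were found in the first promoter of Elf5, at -173, and in a second promoter of Gata2, at -120. That Gata2 promoter also held an AP-2 match, at -222. The first promoter of Gata2, the second of Elf5 and the promoters of Eomes and Tfap2a held no match. No match overlapped another motif in the sequences shown. A match describes letters and is no binding site.

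All 10 genes are protein-coding in GRCm38.p6. Krt8 (chr15:101996711-102004342) and Krt18 (chr15:102028216-102032026) lie on the same chromosome, whereas Krt19 lies at chr11:100140810-100145926. Cdx2 lies at chr5:147300900-147307249, Gata2 at chr6:88193891-88207032, Eomes at chr9:118478186-118486132 and Tfap2a at chr13:40713802-40738238. Gata3 (chr2:9857078-9887953), Elf5 (chr2:103412098-103450989) and Tfap2c (chr2:172545678-172558622) share a chromosome. Cdx2, Gata3, Gata2, Krt8 and Krt18 have 1 transcript each in the annotation used, so their length was fixed. RSEM's mean transcript lengths of the other members overlapped between YAP and control libraries in both experiments.

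Yap1 itself followed the labels. Its expected counts were 5303, 7162 and 6007 in CTR KD and 2466, 2414 and 3031 in YAP KD, and 6936, 6366 and 7047 in CTR OE and 14289, 11199 and 13684 in YAP OE. The groups did not overlap in either experiment. Yap1 fell by 1.14 on the log2 scale in YAP KD (SE 0.0568, adjusted p = 4.357e-05) and rose by 0.97 in YAP OE (SE 0.047, adjusted p = 3.471e-08), with reads of the plasmid and of the endogenous gene counted together.

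In YAP OE cells, 4 members rose, Cdx2, Gata3, Krt18 and Krt8, and 0 fell. In YAP KD cells, 3 members rose, Tfap2c, Krt19 and Krt8, and 0 fell. A gene was called when its adjusted p from edgeR's quasi-likelihood test was under 0.05. By this rule 2.13% of all 14804 genes tested were called in YAP OE, 1.66% higher and 0.473% lower, and 5.49% of 14606 in YAP KD, 2.71% higher and 2.78% lower. By the plainer measure of groups that do not overlap in normalised CPM, 6 members lay above and 1 below their controls in OE, where 18.1% of all genes did not overlap, 10.3% above and 7.80% below. In KD, 4 members lay above and 0 below, where 25.9% of all genes did not overlap, 13.2% above and 12.7% below. The remaining counts were 8 members tested in OE, with 7 at an unadjusted p under 0.05, and 7 tested in KD, with 4 at an unadjusted p under 0.05. The share of all genes at that unadjusted level was not counted. These counts, and the like counts given for the gene lists, are therefore descriptions without a background. Cdx2 passed the filter on low counts only through the YAP OE libraries, where it was high, so the count of members that passed the test in OE is a description.

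**Figure D1:**
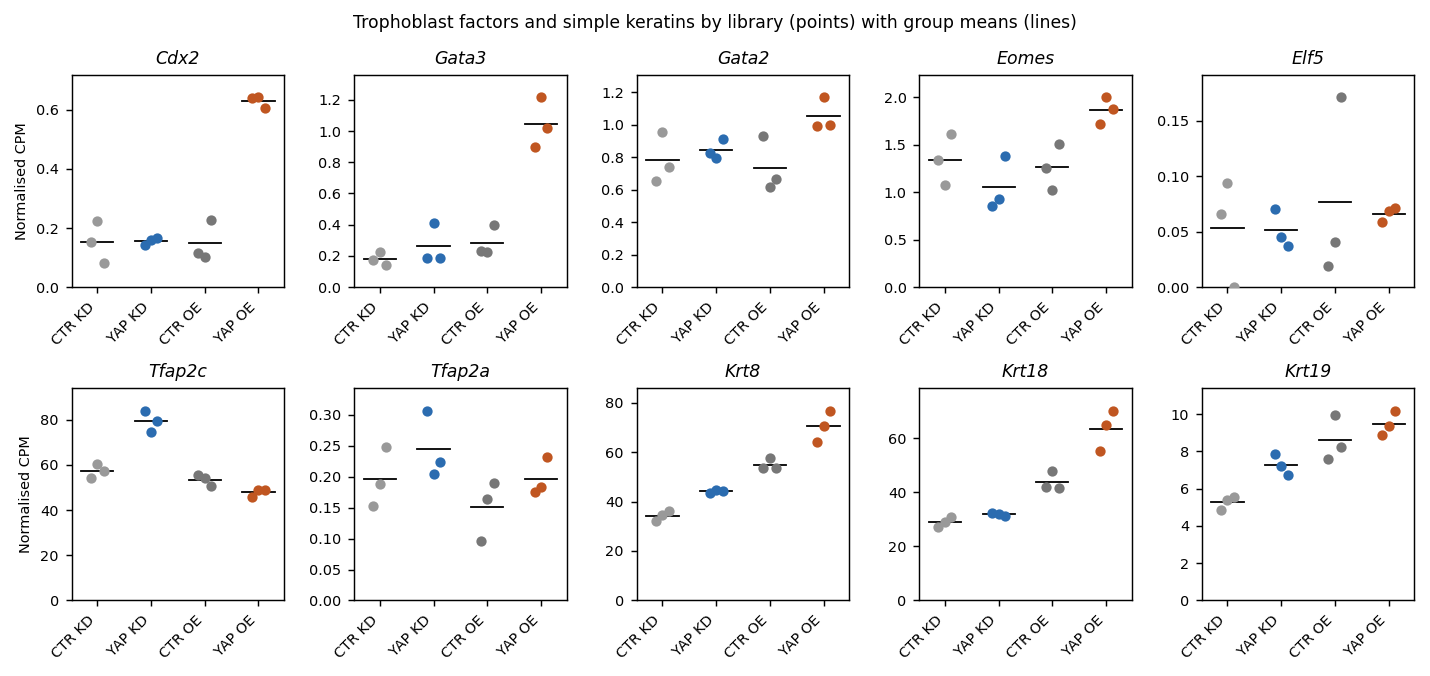
Normalised CPM (vertical axis, starting at 0, a scale of its own in each panel) of the 10 genes in the 12 libraries, with 1 point a library and a line at the mean of each group. Cdx2 and Gata3 stood apart in the 3 YAP OE libraries, Tfap2c was highest in the 3 YAP KD libraries, and the keratins were higher in both OE groups than in CTR KD.

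Cdx2, the caudal-type homeobox factor that specifies trophectoderm, rose in YAP OE, with the largest fold change of the 8 members tested there, within the error of that of Gata3. It had 6, 5 and 12 expected counts in CTR OE and 33, 28 and 34 in YAP OE. The normalised level was 0.149 ± 0.069 CPM in CTR OE and 0.631 ± 0.0198 CPM in YAP OE (SD, n = 3), and every YAP OE library was above every CTR OE library. The log2 fold change was 2.05 (SE 0.303, 4.14-fold, edgeR adjusted p = 0.001587). Cdx2 passed the filter on low counts only through the YAP OE libraries, where it was high, so this adjusted p is a description. With no filter beyond 1 count, which tests the gene at any level, it was called as well. In the KD experiment Cdx2 had 7, 12 and 4 counts in CTR KD and 6, 7 and 9 in YAP KD. The groups overlapped and the counts were too few for the gene to be tested. Over the summed counts of each group, 22 against 23, the rate ratio of YAP KD to CTR KD was 1.01, with an exact 95% interval from 0.536 to 1.89, so a change within these bounds was not detectable at this depth. The same ratio in OE, 95 counts against 23, was 4.2, with an interval from 2.64 to 6.94. These intervals cover counting error only.

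Gata3, the zinc-finger factor that acts beside Cdx2 in trophectoderm, also rose in YAP OE. It had 12, 11 and 21 expected counts in CTR OE and 46, 53 and 57 in YAP OE, and the normalised level went from 0.286 ± 0.0985 to 1.04 ± 0.162 CPM (SD, n = 3). All 3 YAP OE libraries were above all 3 controls, with a log2 fold change of 1.84 (SE 0.251, 3.58-fold, edgeR adjusted p = 0.000886). In the KD experiment the counts were 8, 12 and 7 in CTR KD and 8, 18 and 10 in YAP KD. These groups overlapped and the gene was not tested there. The summed rate ratio was 1.41 (0.83 to 2.41) in KD and 3.61 (2.57 to 5.16) in OE.

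Gata2, the related GATA factor of trophoblast and blood progenitors, had 48, 30 and 35 expected counts in CTR OE and 51, 51 and 56 in YAP OE. The YAP OE libraries were above the controls (0.992 to 1.17 against 0.616 to 0.928 normalised CPM), but the log2 fold change, 0.51 (SE 0.196), did not pass (adjusted p = 0.2563, unadjusted p = 0.02126 by edgeR). In KD it had 30, 51 and 36 counts in CTR KD and 35, 35 and 49 in YAP KD. Those groups overlapped, with a log2 fold change of 0.10 (SE 0.195, adjusted p = 0.8401).

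Eomes, a T-box factor of trophoblast stem cells that also acts in the primitive streak, had 65, 50 and 79 expected counts in CTR OE and 88, 87 and 105 in YAP OE. The YAP OE libraries were all above the controls, at 1.71 to 2.00 against 1.03 to 1.503 normalised CPM. The log2 fold change of 0.55 (SE 0.156) did not pass (edgeR adjusted p = 0.09485), and it passed with no filter on low counts (adjusted p = 0.03559) and with edgeR's exact test (adjusted p = 0.01977). In KD the counts were 61, 57 and 78 in CTR KD and 36, 41 and 74 in YAP KD. The KD groups overlapped, with a log2 fold change of -0.32 (SE 0.223, adjusted p = 0.4971).

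Elf5, an Ets-family factor that is methylated and silent in ESCs, was at the detection limit. Its expected counts were 3, 5 and 0 in CTR KD, 3, 2 and 2 in YAP KD, 1, 2 and 9 in CTR OE and 3, 3 and 4 in YAP OE. The groups overlapped in both experiments, and the gene was tested in neither. The third CTR KD library had 0 counts, which allows a level of up to 0.0616 CPM there. Summed over libraries, the rate ratio was 0.923 (0.285 to 2.91) in KD and 0.847 (0.328 to 2.14) in OE. The upper bound in OE was below the rate ratio of Cdx2, and a change inside these intervals was not detectable.

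**Figure D2:**
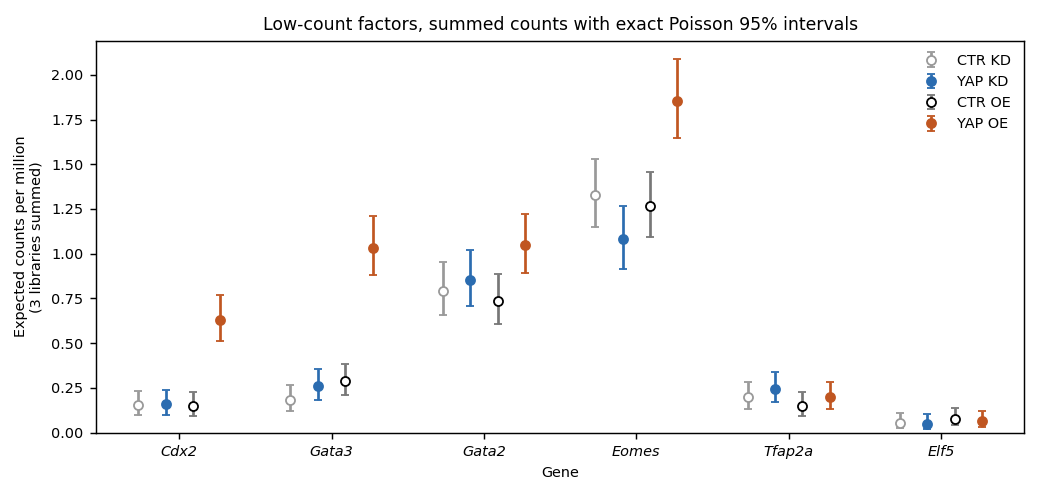
Expected counts, in CPM, of the 6 low-count factors (vertical axis), summed over the 3 libraries of each group, with exact Poisson 95% intervals as bars. Cdx2 was at 0.63 (0.51 to 0.77) in YAP OE and at 0.15 to 0.157 in the other 3 groups, whereas Elf5 and Tfap2a had overlapping intervals in all 4 groups.

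Of the AP-2 factors, Tfap2c rose in YAP KD and Tfap2a stayed near the detection limit. Tfap2c, which is shared by trophoblast and the germ line and is also expressed in ESCs, was the most abundant factor of the set. It had 2470, 3219 and 2772 expected counts in CTR KD and 3557, 3279 and 4257 in YAP KD. The normalised level rose from 57.2 ± 3.15 to 79.3 ± 4.78 CPM (SD, n = 3), with no overlap, and the log2 fold change was 0.47 (SE 0.057, 1.38-fold, edgeR adjusted p = 0.002166). In OE it had 2874, 2641 and 2666 counts in CTR OE and 2354, 2125 and 2745 in YAP OE. The 3 YAP OE libraries were below the controls, at 45.8 to 49.1 against 50.7 to 55.6 normalised CPM, but the log2 fold change of -0.16 (SE 0.0454) did not pass (edgeR adjusted p = 0.09346). With no filter on low counts it passed (adjusted p = 0.04018). Tfap2a, known from surface ectoderm and neural crest, had 5 to 13 counts in every library. Its counts were 7, 10 and 12 in CTR KD, 13, 9 and 12 in YAP KD, 5, 8 and 10 in CTR OE and 9, 8 and 13 in YAP OE. Its groups overlapped in both experiments, with a log2 fold change of 0.30 in KD (SE 0.328, adjusted p = 0.7042) and too few counts for a test in OE, where the summed rate ratio was 1.33 (0.745 to 2.39).

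Krt8, the type II simple keratin, rose in both experiments. It had 1459, 1840 and 1761 expected counts in CTR KD and 1847, 1962 and 2383 in YAP KD, and 2761, 2805 and 2812 in CTR OE and 3304, 3080 and 4296 in YAP OE. The normalised level went from 34.3 ± 2.21 to 44.2 ± 0.501 CPM in KD and from 54.8 ± 2.4 to 70.6 ± 6.28 CPM in OE (SD, n = 3). No YAP library overlapped its controls. The log2 fold change was 0.37 in KD (SE 0.0518, 1.29-fold, edgeR adjusted p = 0.004444) and 0.36 in OE (SE 0.0562, 1.29-fold, edgeR adjusted p = 0.002236).

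Krt18, the type I partner of Krt8 in simple epithelia, rose in OE. It had 2176, 2333 and 2177 expected counts in CTR OE and 2833, 2821 and 3925 in YAP OE, or 43.8 ± 3.57 and 63.3 ± 7.64 normalised CPM (SD, n = 3). The groups were apart, and the log2 fold change was 0.53 (SE 0.0736, 1.45-fold, edgeR adjusted p = 0.001007). In KD it had 1234, 1536 and 1500 counts in CTR KD and 1362, 1404 and 1681 in YAP KD. The YAP KD libraries were just above the controls, at 31.3 to 32.2 against 27.0 to 31.0 normalised CPM, and the log2 fold change, 0.13 (SE 0.0546), did not pass (adjusted p = 0.2034).

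Krt19, the smallest type I keratin, rose in KD. It had 221, 288 and 268 expected counts in CTR KD and 333, 319 and 361 in YAP KD, or 5.26 ± 0.368 and 7.28 ± 0.568 normalised CPM (SD, n = 3). The groups did not overlap and the log2 fold change was 0.46 (SE 0.0878, 1.38-fold, edgeR adjusted p = 0.01576). The call was lost without the third CTR KD library (0.50, adjusted p = 0.05265), without the first YAP KD library (0.40, adjusted p = 0.07119) and without the second (0.47, adjusted p = 0.06705). In OE it had 393, 486 and 434 counts in CTR OE and 456, 408 and 570 in YAP OE. Those groups overlapped, with a log2 fold change of 0.14 (SE 0.092, adjusted p = 0.5672).

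**Figure D3:**
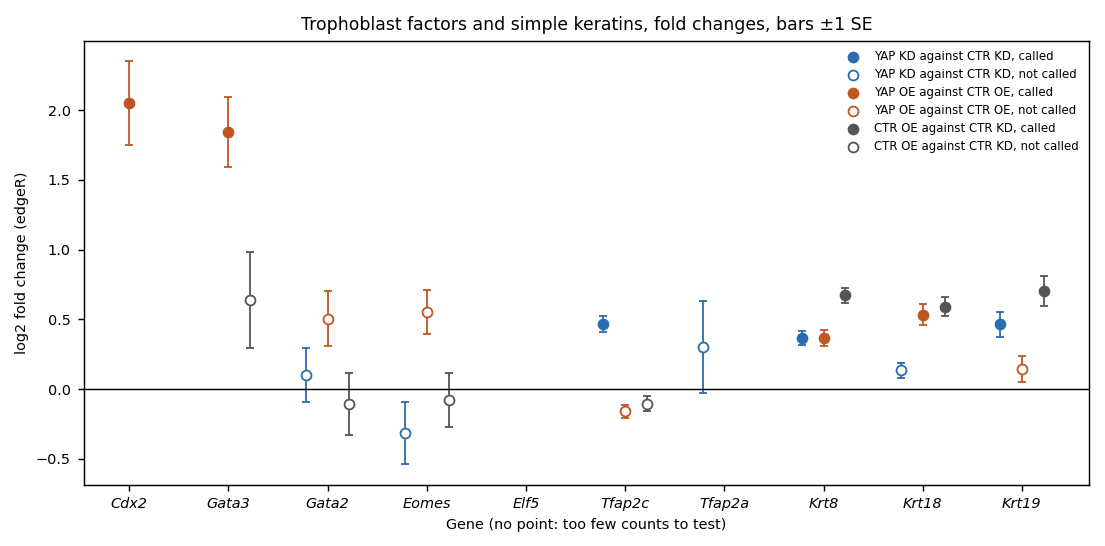
Log2 fold changes (vertical axis, edgeR, bars of 1 SE) of the 10 genes in 3 comparisons, with filled points for those with an adjusted p under 0.05 and no point where a gene had too few counts to be tested. Cdx2 and Gata3 had the largest changes in YAP OE, at 2.05 and 1.84, and Krt8, Krt18 and Krt19 were all higher in CTR OE than in CTR KD. Cdx2 passed the filter on low counts only through the YAP OE libraries.

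The balance between the keratins was read from ratios of their levels per length, in TPM, which is scaled to the same sum in each library. The ratio of Krt8 to Krt18 TPM was 0.888, 0.901 and 0.883 in the CTR KD libraries and 1.02, 1.05 and 1.07 in the YAP KD libraries. It was 0.953, 0.904 and 0.971 in CTR OE and 0.875, 0.822 and 0.822 in YAP OE. The ratio was thus above its controls in all YAP KD libraries and below them in all YAP OE libraries, by 0.23 and -0.17 on the log2 scale. The exact permutation test gave p = 0.1 for each (two-sided), which is the smallest p that 3 against 3 libraries allow. The ratio of Krt19 to Krt18 had means of 0.21 ± 0.00932 in CTR KD, 0.259 ± 0.0198 in YAP KD, 0.23 ± 0.0134 in CTR OE and 0.168 ± 0.0151 in YAP OE (SD, n = 3). It too was higher in all YAP KD libraries and lower in all YAP OE libraries than in their controls, by 0.30 and -0.45 on the log2 scale (exact permutation p = 0.1 for each). The main ratio of the design was that of the type II keratin to both type I keratins together, Krt8 to Krt18 plus Krt19. The ratios above were secondary to it. This main ratio went from 0.736 ± 0.00843 to 0.83 ± 0.0328 in KD and from 0.767 ± 0.0298 to 0.719 ± 0.0185 in OE (SD, n = 3). The difference was 0.17 on the log2 scale in KD (exact permutation p = 0.1) and -0.09 in OE (exact permutation p = 0.2), where the groups overlapped.

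**Figure D4:**
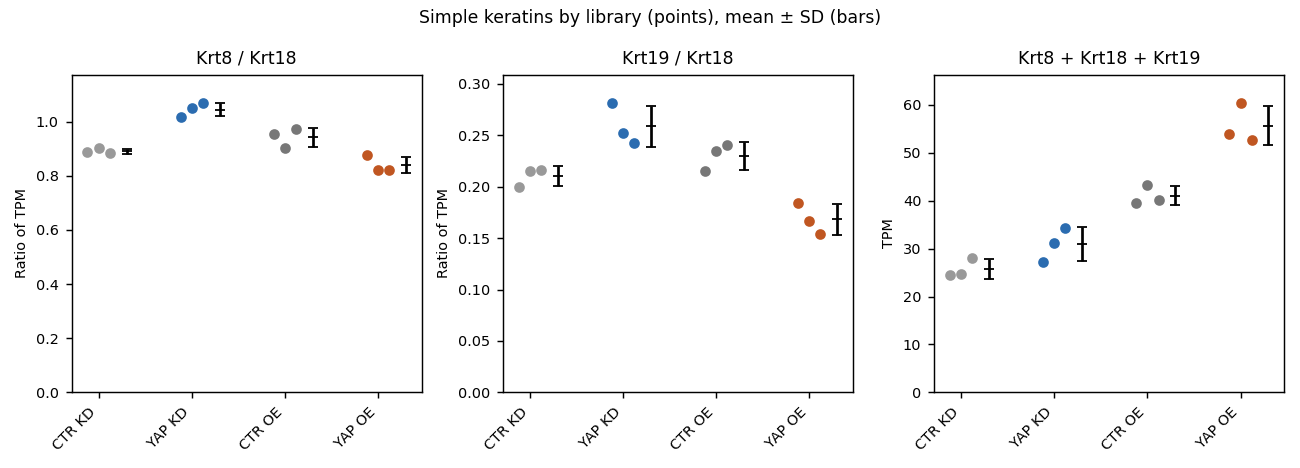
Ratios of Krt8 to Krt18 and of Krt19 to Krt18 TPM and the summed TPM of the 3 keratins (vertical axes from 0) in each library, with the mean and SD of each group as bars. Both ratios were highest in YAP KD and lowest in YAP OE, whereas the sum was highest in YAP OE, at 52.7 to 60.3 TPM. Small RNA entries took 64.1% to 71.4% of TPM, so the sum also depends on their share in each library. The main ratio, of Krt8 to Krt18 plus Krt19, is not plotted.

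The responses to OE and KD were compared directly, as the change in OE minus the change in KD, in 1 fit over the 12 libraries. This difference passed the test for 3 of the 9 members tested, where 8.80% of all 15049 genes passed, 5.24% with a higher response in OE and 3.56% with a lower one. It was 2.04 for Cdx2 (SE 0.522, edgeR adjusted p = 0.0227) and 0.40 for Krt18 (SE 0.112, adjusted p = 0.03583), both higher in OE. Cdx2 entered this fit only through the YAP OE libraries, where it was high, so its call and the count of 3 are descriptions. It was -0.63 for Tfap2c (SE 0.0772, adjusted p = 0.000125), lower in OE. Eomes (0.87, SE 0.28, adjusted p = 0.06932), Gata3 (1.36, SE 0.499, adjusted p = 0.1121) and Krt19 (-0.32, SE 0.141, adjusted p = 0.1898) did not pass. For Krt8 the difference was 0.00035 (SE 0.0884), a change in the same direction in both experiments. The call of Cdx2 was lost without the second CTR KD library (1.63, adjusted p = 0.1031), the first CTR OE library (1.88, adjusted p = 0.06209) or the second CTR OE library (1.84, adjusted p = 0.0558). The call of Krt18 was kept in 4 of 12 left-out fits, at 0.32 to 0.49, and that of Tfap2c in all 12.

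The control groups themselves differed in the keratins. Between CTR OE and CTR KD, 3 of the 7 members tested were higher in CTR OE and 0 were lower, where 0.733% of all 14744 genes were called, 0.454% higher and 0.278% lower. Krt8 was higher by 0.67 on the log2 scale (SE 0.0547, 1.59-fold, edgeR adjusted p = 0.0008411), Krt18 by 0.59 (SE 0.0675, adjusted p = 0.005061) and Krt19 by 0.70 (SE 0.106, adjusted p = 0.01787). Krt19 lost its call without the third CTR KD library (0.74, adjusted p = 0.08277) or the third CTR OE library (0.73, adjusted p = 0.08144). Gata3 (0.64, SE 0.346, adjusted p = 0.5919) and Tfap2c (-0.10, SE 0.0522, adjusted p = 0.5494) did not pass. The transfected nucleic acid, siRNA or plasmid, and the experiment cannot be told apart here, and this comparison shares its libraries with the others.

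Per length, the keratins and Tfap2c were far more abundant than the other factors in every group. In CTR KD, Krt18 (11.7 to 13.4 TPM) stood above Tfap2c (10.9 to 11.5), whereas the range of Krt8 (10.4 to 11.8) overlapped both. Within each CTR KD library Krt8 was below Krt18, at a ratio of 0.883 to 0.901. Krt19 came next (2.34 to 2.89). Eomes (0.15 to 0.24 TPM) and Gata2 (0.11 to 0.15) followed with overlapping ranges, then Cdx2, Gata3 and Tfap2a between 0.02 and 0.06, and Elf5 at 0.02 or less. Mean TPM in CTR KD was above that of 87.25% of all genes for Krt18 and 38.33% for Cdx2. In YAP KD, Tfap2c (14.2 to 17.5 TPM) moved to the top, with Krt8 and Krt18 overlapping it. In CTR OE, Krt18 (18.2 to 20.2 TPM) and Krt8 (17.4 to 18.3) already stood above Tfap2c (10.3 to 11.2). They also did in YAP OE, where Krt18 was at 26.2 to 30.3 TPM, Krt8 at 21.9 to 24.9 and Tfap2c at 8.64 to 10.6. In YAP OE, Cdx2 (0.14 to 0.19), Gata3 and Gata2 overlapped one another below Eomes (0.25 to 0.33). Even in YAP OE, mean Cdx2 TPM was above that of only 46.68% of all genes. In bulk RNA, fewer cells with a transcript and less transcript in each cell cannot be told apart.

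Other genes of the trophoblast program were read from fixed lists. Of 14 trophectoderm and trophoblast stem cell genes, all tested, 1 rose and 2 fell in YAP KD, with a median log2 fold change of -0.08 against 0.0058 over all genes, and 1 rose and 0 fell in YAP OE, with a median of 0.056 against -0.0025. Cdh3, the placental cadherin, fell by 0.58 on the log2 scale in KD (SE 0.0693, edgeR adjusted p = 0.002038), from 42.9 ± 4.43 to 28.8 ± 0.682 normalised CPM (SD, n = 3), and was at 41.5 ± 1.8 and 42.9 ± 1.75 CPM in CTR OE and YAP OE. Id2, an inhibitor of basic helix-loop-helix factors, rose in both, by 0.49 in KD (SE 0.0722, adjusted p = 0.005273) and by 0.27 in OE (SE 0.059, adjusted p = 0.0222), and the OE call was kept in 2 of 6 fits that left out 1 library. It was also higher in CTR OE than in CTR KD, by 0.57 (adjusted p = 0.005061). Ets2, an Ets factor of trophoblast stem cells, fell by 0.27 in KD (SE 0.0657, adjusted p = 0.043), a call kept in 2 of 6 such fits. Tead4, the TEAD factor needed for trophectoderm, did not pass in KD (-0.18, SE 0.0626, adjusted p = 0.1454) or OE (0.15, SE 0.0618, adjusted p = 0.2819), but the difference between those responses did (0.33, SE 0.0918, adjusted p = 0.0346), in 4 of 12 fits that left out 1 library. It was lower in CTR OE than in CTR KD by 0.38 (adjusted p = 0.01997), a call kept in 2 of 6 fits that left out 1 library and lost with the replicate block (adjusted p = 0.0744). It was lost without CTR KD replicate 3 or any single CTR OE library (-0.40 to -0.36). Fgfr2 (0.35, adjusted p = 0.001657), Cdh3 (0.62) and Ets2 (0.34, adjusted p = 0.0202) also had higher responses in OE than in KD, and the call of Ets2 was kept in 6 of 12 such fits.

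Of 16 differentiated trophoblast genes, 5 were tested in KD and 0 passed, with 1 at an unadjusted p under 0.05. In OE 7 were tested, 2 rose and 0 fell, with 5 at an unadjusted p under 0.05 and 6 with a positive log2 fold change, and the median of those tested was 0.56 against -0.0025 over all genes. Hand1, Dlx3, Esx1 and Gcm1 had as few as 6, 9, 9 and 7 expected counts in a CTR OE library. They passed the filter on low counts with the help of the YAP OE libraries, where they were higher on average. The OE counts and the median of this list are therefore descriptions. Peg10, an imprinted retrotransposon-derived gene of the placenta that ESCs also express, rose by 0.50 on the log2 scale (SE 0.0507, edgeR adjusted p = 9.276e-05), from 170.6 ± 3.02 to 240.9 ± 18.6 normalised CPM (SD, n = 3), and was at 131 ± 3.48 in CTR KD and 120.8 ± 7.6 in YAP KD. Ascl2, a factor of spongiotrophoblast, had 85 to 96 expected counts in CTR OE and 127 to 136 in YAP OE and rose by 0.56 (SE 0.137, adjusted p = 0.04587), a call kept in 1 of 6 fits that left out 1 library. Other genes of the list, at low counts, did not pass. Hand1, a factor of giant cells, had 6 to 12 expected counts in CTR OE and 14 to 22 in YAP OE (log2 fold change 1.17, SE 0.366, edgeR adjusted p = 0.1365). Esx1, a homeobox gene of labyrinth trophoblast, had 9 to 21 and 25 to 34 (0.95, SE 0.288, adjusted p = 0.1233), and Gcm1, a factor of syncytiotrophoblast, had 7 to 16 and 14 to 33 (0.92, SE 0.389, adjusted p = 0.3046). Hand1 and Esx1 did not overlap between the OE groups, and Gcm1 did. Prl3b1, Prl8a9 and Ctsq had 0 counts in all 12 libraries, Synb had at most 1 count, Tpbpa at most 3, and 9 or 10 of the 16 genes were under 10 counts in every library of a group.

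**Figure D5:**
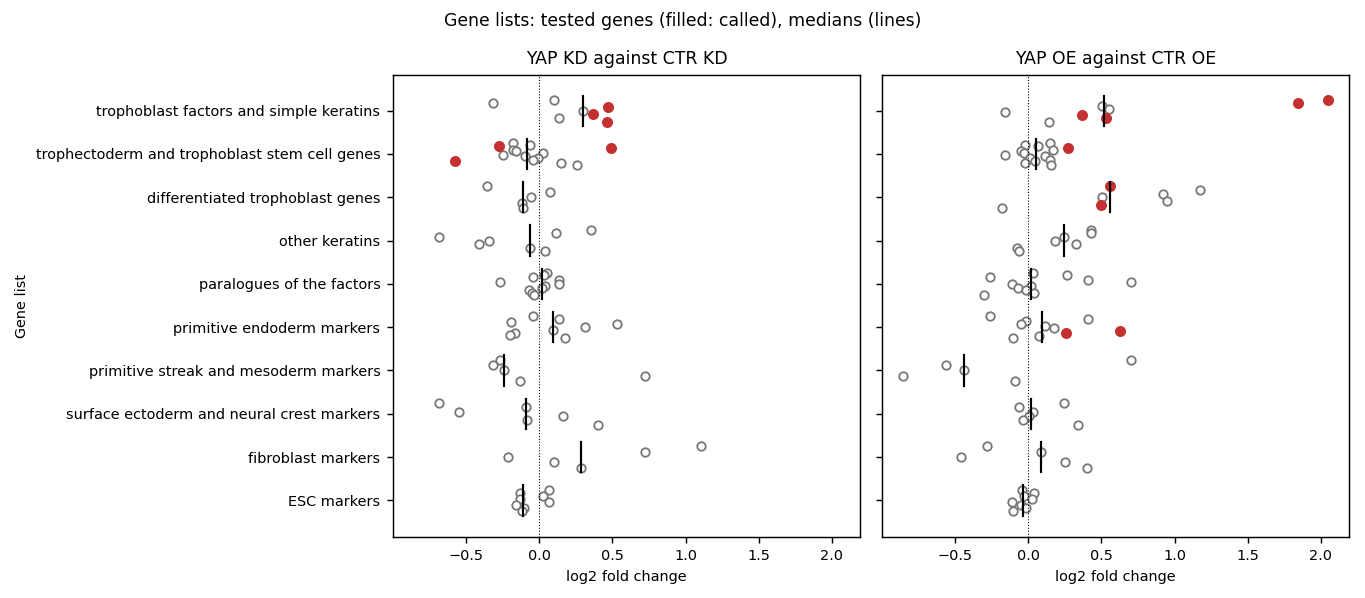
Log2 fold changes (horizontal axes, edgeR) of the tested genes of each list in YAP KD and YAP OE, 1 point a gene, filled where the adjusted p was under 0.05, with a line at the median. The filled points of the top list lie to the right in both panels, and 0 ESC markers are filled.

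Among the other keratins, 7 of 13 genes were tested and 0 passed in KD (3 at an unadjusted p under 0.05) or in OE (1 at an unadjusted p under 0.05) by edgeR. Krt7, a simple type II keratin of trophoblast, was at 3.13 ± 0.247, 4.01 ± 0.078, 5.39 ± 0.261 and 7.21 ± 1.58 normalised CPM (SD, n = 3) in CTR KD, YAP KD, CTR OE and YAP OE. Its log2 fold change was 0.36 in KD (adjusted p = 0.06029), 0.43 in OE (adjusted p = 0.1098) and 0.77 between the controls (adjusted p = 0.005061). With edgeR's exact test Krt7 passed in KD (adjusted p = 0.01749) and OE (adjusted p = 0.03917), and with no filter it passed in OE (adjusted p = 0.004372). Krt17, a type I keratin of stratified epithelia, had -0.34 in KD (SE 0.0881, adjusted p = 0.05475) and passed there under 4 of 14 alternatives, among them the exact test (adjusted p = 0.01048). Of the 16 paralogues of the member factors (Cdx, Gata, T-box, Elf and AP-2 genes), 11 were tested and 0 passed in KD or OE by edgeR, with 1 and 2 at an unadjusted p under 0.05.

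Genes of other lineages that use the same factors or keratins were read beside these results. Of 11 primitive endoderm markers, 9 were tested in KD and 0 passed (2 at an unadjusted p under 0.05), and 10 were tested in OE, of which Sparc (0.26, SE 0.0392, edgeR adjusted p = 0.002229) and Dab2 (0.63, SE 0.111, adjusted p = 0.006449) rose. The list summed to 150.3 to 171.3 normalised CPM in CTR KD, 137.3 to 154.1 in YAP KD, 161 to 169.9 in CTR OE and 179.7 to 182.7 in YAP OE, and Afp had 0 counts in every group but CTR OE. Of the 10 tested in OE, 6 had a positive log2 fold change, and the median was 0.092. Sparc and Dab2 moved with the keratins in OE, whereas Gata4 was lower (-0.26, SE 0.134, edgeR adjusted p = 0.4308). The part of these markers in the result was not tested. Of 10 primitive streak and mesoderm markers, 5 were tested and 0 passed in either experiment by edgeR (1 in KD and 2 in OE at an unadjusted p under 0.05). Their sum was 4.34 to 4.88, 4.21 to 4.58, 3.56 to 4.28 and 3.17 to 4.08 normalised CPM in the order above. Of 10 surface ectoderm and neural crest markers, 6 were tested and 0 passed (2 in KD and 0 in OE at an unadjusted p under 0.05), with sums of 91.1 to 98.3, 83.9 to 91.3, 96.7 to 98.1 and 93.5 to 100.8. Of 8 fibroblast markers, 5 were tested and 0 passed (2 in KD and 1 in OE at an unadjusted p under 0.05). Their sum was 2.54 to 2.82 in CTR KD, 3.28 to 3.92 in YAP KD, 3.48 to 3.995 in CTR OE and 3.73 to 4.22 in YAP OE, lowest in CTR KD as for the keratins, and their part in the result was not tested. Col1a1, a chain of type I collagen, had 7 to 15 expected counts in CTR KD, 15 to 32 in YAP KD, 26 to 38 in CTR OE and 23 to 27 in YAP OE. Its log2 fold change was 1.103 in KD (SE 0.401, edgeR adjusted p = 0.1579), -0.28 in OE (SE 0.222, adjusted p = 0.6613) and 1.37 between the controls (SE 0.276, adjusted p = 0.06362). Col1a2, the other chain, had 0.73 in KD (SE 0.239, adjusted p = 0.1219), 0.089 in OE (SE 0.191, adjusted p = 0.9129) and 0.57 between the controls (SE 0.211, adjusted p = 0.364). Lum, a small proteoglycan of fibroblasts, had 0 or 1 count in every library.

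The genes most like each member in pattern were found by Pearson correlation of log2 CPM over the 12 libraries, among 12395 genes, for the members with at least 50 counts on average. The libraries of 2 experiments share these values, so r mixes the step between the controls with the responses to YAP. Krt8 was most like Krt7 (r = 0.984), Anxa3 (0.975) and Anxa2 (0.968). Krt18 was most like Tpm1 (0.984), Col2a1 (0.977) and Nuak1 (0.972), and Krt19 like Clu (0.964), Cnn2 (0.942) and Gbp2 (0.942). Tfap2c was most like Cd276 (0.987), Cotl1 (0.976) and Map4k4 (0.974), and Eomes like Decr2 (0.906), 1700049G17Rik (0.903) and Tmem19 (0.888). Between members, r was 0.968 for Krt8 with Krt18, 0.941 for Krt8 with Krt19, 0.867 for Krt18 with Krt19 and -0.71 for Eomes with Tfap2c.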

How the data were processed

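RNA-seq libraries of 12 mouse ESC samples were compared in 4 groups of 3. The authors aligned reads with STAR to mm10, and RSEM assigned them to curated RefSeq genes, with versions and strand setting not given in the sources used here. The deposited expected counts are estimated read counts per gene, not normalised, and reads shared between genes are divided among them. The deposited TPM values are relative to transcript length and to the sum of each library. The authors' length and effective length columns were read to describe transcripts, and the deposited FPKM values were not used.

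Expected counts were rounded and fitted with edgeR 4.0.16 (R 4.3.3) by the two-sided quasi-likelihood F test after TMM scaling and filterByExpr, each experiment on its own 6 libraries. P-values were adjusted by Benjamini-Hochberg over all genes kept, and an adjusted p under 0.05 was a call. The SE is the absolute log2 fold change divided by the square root of F. Normalised CPM are scaled by TMM factors. Exact Poisson intervals and permutation tests used scipy 1.17.1, and alternatives used DESeq2 1.42.0 and limma 3.58.1. Fits were tested on simulated data with known changes. The simulated libraries had a fixed spread that was not estimated from these data. Changes were planted only in genes above a minimum mean count, so counts as low as those of Cdx2 and Elf5 were not covered. Within groups, libraries differed beyond counting noise (chi-square over its degrees of freedom 3.393 to 24.22), so each was counted as 1 sample. P-values measure the spread between libraries, which are separate experiments per the labels.

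All members are named. List genes are named where they were called in an experiment, the 4 with the smallest adjusted p for each list, with Yap1 and Tead4 always, and list genes whose response differed between the experiments. Krt7, Hand1, Esx1, Gcm1, Col1a1, Col1a2 and the genes named at or near 0 counts were chosen after their values were seen. The members and lists were chosen with earlier results of these data known. Gene positions and promoters are from RefSeq for GRCm38.p6, in which Tfap2c and Krt19 had no promoter entry. Small RNA entries, 1331 in number, took 64.1% to 71.4% of TPM but 10.3% to 13.2% of expected counts, so TPM served for levels between genes within a library and for alternative fits. The plotted keratin sum is also in TPM, and its steps between libraries depend on that share too.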

Additional observations from a re-analysis of the deposited data

Results flagged for a closer look

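The responses to YAP OE and YAP KD differed by a direct test, as the log2 change in OE minus that in KD over the 12 libraries, for 13 of the named genes. Of all 15049 genes tested, 8.80% passed. List genes were named partly because of this difference, and Yap1 was itself targeted, so the count of 13 is a description. Among the members this difference was 2.04 for Cdx2, which was tested only through its level in YAP OE, 0.40 for Krt18 and -0.63 for Tfap2c. It was 2.11 for Yap1, the targeted gene, and 0.33 for Tead4. Among trophectoderm and trophoblast stem cell genes it was 0.62 for Cdh3, 0.35 for Fgfr2 and 0.34 for Ets2, and among differentiated trophoblast genes 0.62 for Peg10 and 0.92 for Ascl2. It was 0.53 for Krt17, 0.42 for Sparc and -1.57 for Tbx6. With 1 library left out, the call of Krt17 was kept in 7 of 12 fits (0.44 to 0.62) and that of Tbx6 in 8 of 12 (-1.75 to -1.36). Krt17 lost its call without YAP KD replicate 3, CTR OE replicate 1 or 2, or YAP OE replicate 1 or 3, and Tbx6 without CTR KD replicate 3, YAP KD replicate 3, or CTR OE replicate 1 or 3. Tbx6, a T-box factor of presomitic mesoderm, had 8 to 12 expected counts in CTR KD, 13 to 23 in YAP KD, 18 to 26 in CTR OE and 11 to 14 in YAP OE. No group had enough libraries for a single library to be tested as standing apart.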

How the results depend on the processing

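In OE, the calls of Gata3 and Krt18 were kept in every alternative that tested them and in all 6 fits that left out 1 library, and 4 members were called in each of those 6 fits. Cdx2 is among them but is tested there only because it is high in YAP OE, whereas the setting with no filter beyond 1 count tests it at any level (2.05). With at least 1 CPM in 3 libraries, 2 were called in OE, since Cdx2 and Gata3 were no longer tested. In KD, 0 members were called on log2(TPM + 0.1) and 0 on log2(TPM + 1), against 2 after TMM rescaling and 3 with small RNA entries left out, alternatives chosen after seeing the data. Leaving out 1 library gave 2 to 3 calls in KD, 1 to 3 for the difference of the responses and 2 to 3 between the controls. The difference gave 1 call on log2(TPM + 0.1), and 4 with the block, with Eomes added. The fold changes of Cdx2 and Gata3 in OE were 0.97 and 0.93 on log2(TPM + 0.1) and 0.17 and 0.18 on log2(TPM + 1), since a pseudocount above the level of a gene shrinks its change. The calls of Krt8 and Tfap2c in KD, Krt8 in OE and Tfap2c in the difference were lost on both unscaled TPM fits only, where the log2 fold changes were 0.35 and 0.33 for Krt8 and 0.45 and 0.42 for Tfap2c in KD, 0.38 and 0.37 for Krt8 in OE and -0.58 and -0.54 for Tfap2c in the difference. Over all genes, 802 calls in KD became 193 with the replicate block, 47 and 74 on TPM, 1178 with the exact test, 1261 in the fit of 12 libraries and 298 to 1019 with 1 library left out. In OE, 316 became 556 with no filter, 518 with the exact test, 68 and 87 on TPM, 147 and 118 on the rescaled TPM and TPM without small RNAs and 154 to 327 with 1 library left out. Between the controls, 108 became 20 to 420 with 1 library left out, 420 without CTR KD replicate 2, and 24 and 40 on TPM, 37 and 44 on those same scales, 321 with the exact test, 37 with the block, 200 over 12 libraries and 170 with DESeq2, and the difference of the responses gave 1325 calls but 123 and 139 on TPM. The replicate numbers did not pair the samples (r of equal numbers -0.361 to 0.016 in KD and -0.0243 to 0.0658 in OE), and with the replicate block as a term 2 members were called in KD, Krt19 being lost (adjusted p = 0.09526 by edgeR).
Differences that changed sign were small and not called under any setting. In KD, with 1 library left out, Gata2 ranged from -0.016 to 0.27 and Dab2 from -0.0066 to 0.15. In the difference of the responses, Tfap2a was -0.0303 and -0.0046 on log2(TPM + 0.1) and log2(TPM + 1), -0.044 after TMM rescaling, -0.061 without small RNAs and -0.14 to 0.30 with 1 library left out. Krt8 was -0.00068 with no filter, -9.4e-05 with DESeq2, -0.0038 with voom, -0.0041 with the block, -0.0034 after TMM rescaling and -0.067 to 0.065 with 1 library left out, and Krt7 was -0.11 to 0.22. Between the controls with 1 library left out, Gata2 was -0.31 to 0.068, Eomes -0.23 to 0.075, Cdh3 -0.11 to 0.034 and Krt17 -0.069 to 0.013, and Krt17 was 0.00304 and 0.0021 on the TPM scales. Depth limits Cdx2, Gata3, Elf5 and Tfap2a, at 0 to 57 counts a library, and the 4 were called in none of the alternatives that could test them where the chosen filter left them out.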
